A study of Rattus norvegicus with 44 samples.

Results

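The collagen genes were examined in the dentate gyrus (DG), the subregion of the hippocampus that holds the granule cells, from 44 male rats of the F344 strain. A gene was taken as a collagen when its symbol had the form Col, a type number, the letter a and a chain number, and when at least 1 rat had a value above 0. This gave 42 collagen genes of 18347 gene identifiers, namely 10 fibrillar, 8 basement membrane and 24 other collagens. Each rat gave 1 poly(A)-selected RNA sequencing library from 1 hemisphere. Young rats (YNG, n = 10) were 6 months old and received vehicle. The older rats, 12 months old when treatment started, received vehicle (AV, n = 12), 12 mg/kg ABT-263 (AA, n = 11), or 1.2 mg/kg dasatinib with 12 mg/kg quercetin (ADQ, n = 11). Tissue was taken after months of treatment, so these rats were then older than 12 months. The treatments were given by mouth in repeated cycles, and both are senolytics, drugs chosen to remove senescent cells. Age and treatment therefore both separate AA and ADQ from YNG, while AV differs from YNG in age. The library is bulk tissue, so fewer cells of a type and less RNA per cell cannot be told apart.

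Collagens are proteins of the extracellular matrix whose chains wind in groups into a triple helix. Fibrillar collagens form the ropes of connective tissue, and in the brain they lie mainly in the meninges and around larger vessels. Type IV collagen forms the sheet of the basement membrane under the endothelium of every brain capillary, and types XV and XVIII bind to that sheet. The other collagens coat fibrils (FACIT collagens such as types IX, XII and XVI), form beaded filaments (type VI) or span the membrane of cells such as neurons (type XXV).

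Values are the normalized values deposited by the authors, with the rows of a gene summed. They are relative to each library and not to gene length, so levels are compared between rats and not between genes. Differences are given on the scale of log2(value + 1) with their standard error (SE). They come from 1 limma fit of the 4 groups over all 15598 genes whose mean value reached 5. A gene is said to have risen or fallen when its unadjusted p was below 0.05, the threshold of the study, and the Benjamini-Hochberg adjusted p is given beside it. Of the 42 collagens, 32 reached the mean value of 5 and were tested. The other 10 all belong to the other collagens and had means between 0.311 (Col23a1) and 4.32 (Col14a1). Just inside that limit lay Col9a1 with a mean of 5.2.

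Some libraries stood apart before any comparison was made. The total of the normalized values had a median of 16660960 in YNG against 15537154 for AV, 15470836 for AA and 15376067 for ADQ. The 4 highest totals belonged to the YNG rats V9, V1 and V3 and the AV rat 4572. AV rat 3989 had the highest summed level of the endothelial, astrocyte, microglial, oligodendrocyte, pericyte, fibroblast and red blood cell marker lists. The rats also fall into 2 series of 22 by their numbers, for which the labels give no reason. The series differed in the share of the normalized values held by the gene AABR07000398.1, with YNG medians of 0.866% in series a and 8.32% in series b, and AV medians of 1.07% and 5.12%. AA rat 4107 had the highest summed level of CA1 pyramidal markers, 43510 beside group means of 7149 to 12691. AV rat 4009 had the highest level of choroid plexus markers, 1499 beside a mean of 124 in YNG.

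More collagens were higher than lower in each older group compared to YNG. In AV, 7 of 32 rose and 1 fell, against 10.6% and 10.7% of all genes tested. In AA, 14 rose and 1 fell, against 12.6% and 14.1% of all genes. In ADQ, 13 rose and none fell, against 13.5% and 14.6%. The median difference of the 32 collagens from YNG was 0.31 for AV, 0.43 for AA and 0.43 for ADQ, beside medians of all genes within 0.01 of 0. The 3 comparisons share the YNG rats, so they are not independent of each other. After adjustment 2, 4 and 3 collagens were higher in AV, AA and ADQ, beside 1.81%, 1.55% and 3.12% of all genes. With the series described above as a term, Col11a2 and Col16a1 in AA and Col25a1 in ADQ also passed (limma adjusted p = 0.0396, 0.0486 and 0.0487). Over all genes and both directions, adjusted calls then went from 601 to 1300 in AA and from 1104 to 1698 in ADQ.

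The counts differed between the series, for collagens as for all genes. Fitted alone, series a had 12, 15 and 15 collagens higher in AV, AA and ADQ, beside 15.2%, 12.5% and 12.3% of all genes. None was lower there, beside 18.3%, 16.1% and 15.1% of all genes. Series b, with 4 YNG rats, had 3, 5 and 3 higher, beside 3.77%, 7.19% and 4.33% of all genes. In series b 2 were lower in AA, near the 5.17% of all genes lower there. None was lower in AV and ADQ of series b, beside 2.54% and 2.57% of all genes. Col18a1 was higher in all 3 older groups of both series.

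**Figure D1:**
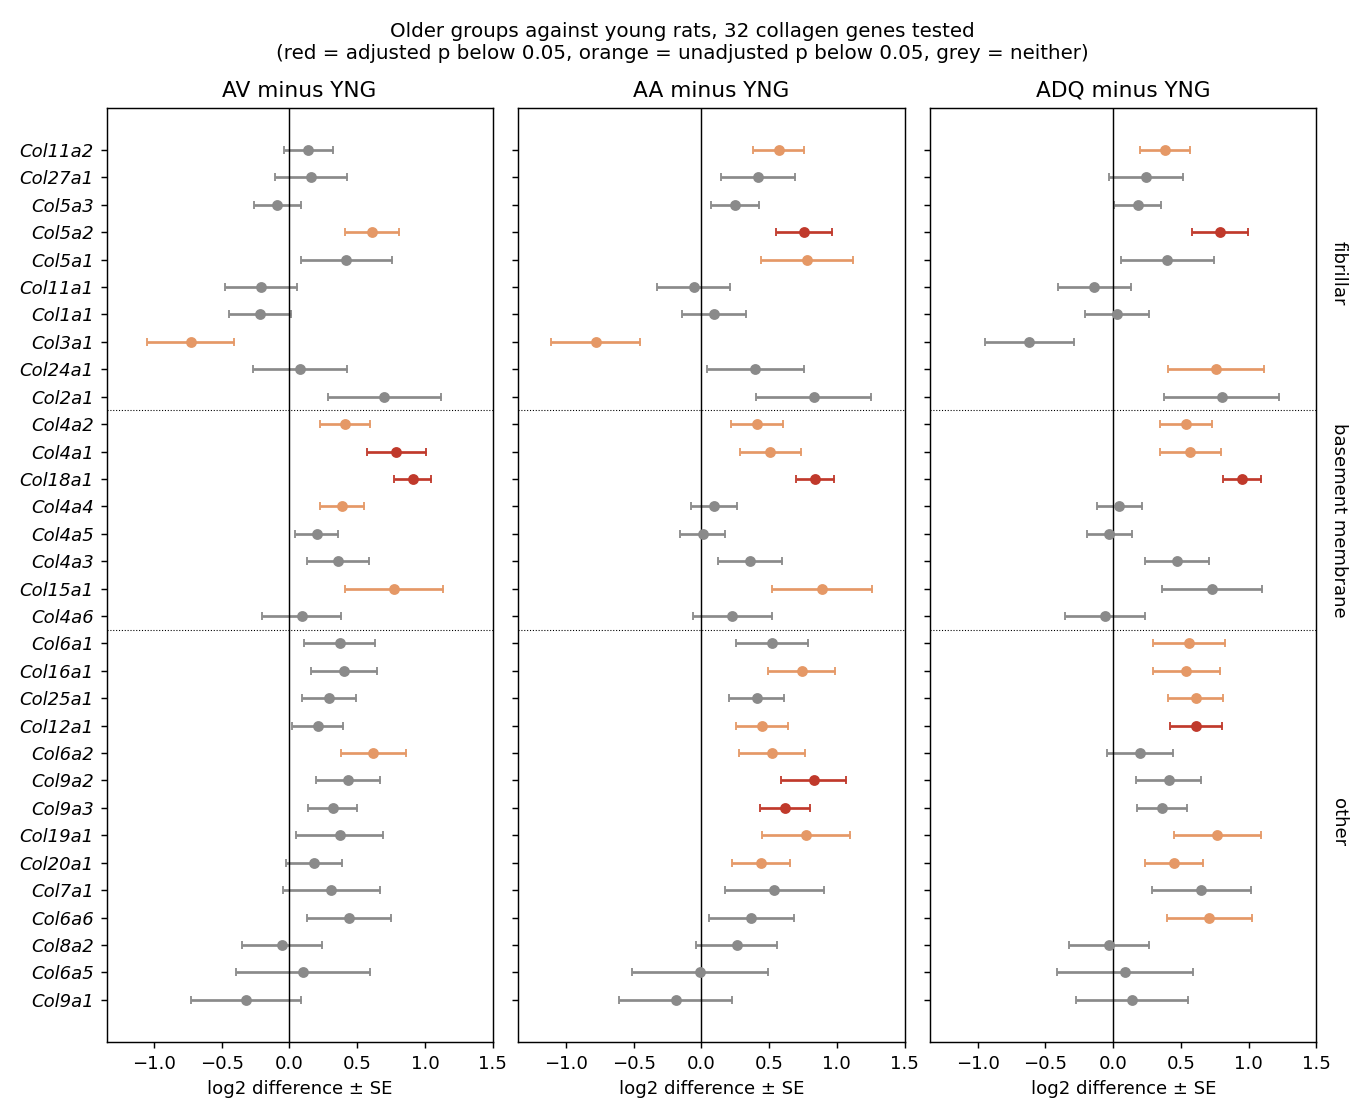
Each point is the log2 difference of a collagen gene from YNG with its SE, for AV (left), AA (middle) and ADQ (right), and genes are grouped by class. Most points lie above 0 in each panel, Col18a1 is marked red (adjusted p below 0.05) in all 3, and Col3a1 lies at -0.73, -0.78 and -0.62.

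The counts depended on the library total. With the log2 total added to the fit, 2 collagens were higher and 3 lower in AV, 1 higher and 2 lower in AA, and 1 higher and 1 lower in ADQ. Over all genes 7.58%, 4.26% and 4.23% were higher in that fit and 4.02%, 3.44% and 3.21% lower, so the collagens that rose lay near the background share. They were Col18a1 in all 3 older groups and Col4a1 in AV, and no other collagen rose with the total in the fit. Col4a4 and Col6a2 in AV were then at 0.35 and 0.51 (limma p = 0.0527 and 0.0508), beside 0.39 and 0.62 without the total. Those lower in that fit were Col11a1 in AV, AA and ADQ, Col3a1 in AV and AA, and Col5a3 in AV. Col11a1, a chain of type XI collagen, was then at -0.71, -0.78 and -0.83 (limma adjusted p = 0.0319, 0.122 and 0.103), beside -0.21, -0.06 and -0.14 without the total. Without the 4 rats with the highest totals, 4, 6 and 3 collagens rose in AV, AA and ADQ, beside 7.31%, 6.27% and 6.11% of all genes. Col3a1 fell in each group there, at -0.85, -0.92 and -0.76 (limma p = 0.0291, 0.0185 and 0.0497). The shares of all genes that fell without these rats were 5.97%, 7.55% and 6.91%. Over the 44 rats, with group means taken off, all 32 collagens tested correlated negatively with the log2 total, with a median r of -0.49 beside 0.02 for all genes tested. The lowest of the mean collagen levels belonged to YNG rat V9, whose total of 20579982 was the highest. Since YNG had higher totals than the older groups, the parts of total and group in these differences cannot be fully told apart. Col18a1 was the collagen that rose in all 3 older groups both with the total in the fit and without the 4 rats.

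**Figure D2:**
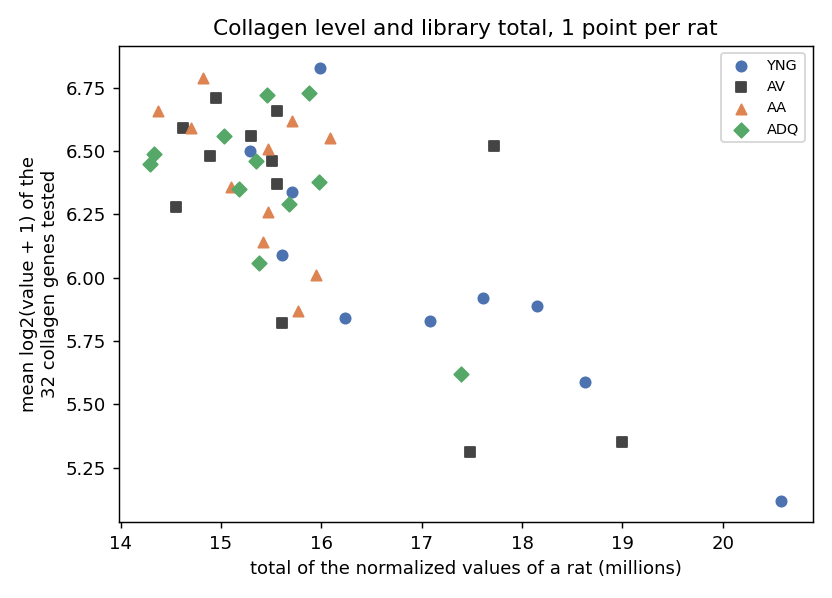
Each point is a rat, with the total of its normalized values on the x axis and the mean log2(value + 1) of the 32 collagens tested on the y axis. YNG rat V9, with the highest total, has the lowest level at 5.12, AV rat 3989 has a high total with a level of 6.52, and several YNG rats lie to the right of most older rats.

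Among the 8 basement membrane collagens, 5, 4 and 3 rose in AV, AA and ADQ, beside 10.6%, 12.6% and 13.5% of all genes, and none fell, beside 10.7%, 14.1% and 14.6%. Col18a1 (ENSRNOG00000001229) encodes type XVIII collagen, a heparan sulfate proteoglycan of vascular basement membranes whose cleaved end is endostatin. Its values in YNG ran from 274.8 to 388 with a median of 340.5. They ran from 414.9 to 924.3 (median 625.1) in AV, from 240.8 to 905.5 (median 654.9) in AA and from 567.8 to 747.5 (median 654) in ADQ. No AV or ADQ rat overlapped with YNG, and in AA a single rat (4107, at 240.8) lay below every YNG rat. In all, 33 of 34 older rats were above the highest YNG rat.

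Compared to YNG, Col18a1 rose by 0.91 ± 0.138 (SE) in AV, 0.84 ± 0.141 in AA and 0.95 ± 0.141 for ADQ, with limma adjusted p-values of 8.59e-05, 0.000865 and 8.88e-05. The differences were as large within each series, at 0.82, 0.83 and 0.84 in series a and 1.05, 0.91 and 1.1 in series b. In series b, with 4 YNG rats, the unadjusted limma p-values were 0.000364, 0.00146 and 0.000214, and the adjusted ones 0.258, 0.224 and 0.286. With the library total in the fit they were 0.84, 0.73 and 0.85, and with the endothelial marker level in the fit 1.09, 0.94 and 1. Without AA rat 4107 the difference in AA was 0.97. No difference of the treated groups from AV passed the threshold for Col18a1, with values of -0.0705 ± 0.135 in AA and 0.0382 ± 0.135 in ADQ (limma p = 0.603 and 0.778).

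The 250 bases before the annotated start of Col18a1, the collagen with the smallest p in each comparison to YNG, are shown for orientation. The sequence is from RefSeq (build GRCr8, chr20:11473395-11473644, plus strand), and capitals mark the letters of the GC box GGGCGG on either strand, which occurs 3 times.
Col18a1: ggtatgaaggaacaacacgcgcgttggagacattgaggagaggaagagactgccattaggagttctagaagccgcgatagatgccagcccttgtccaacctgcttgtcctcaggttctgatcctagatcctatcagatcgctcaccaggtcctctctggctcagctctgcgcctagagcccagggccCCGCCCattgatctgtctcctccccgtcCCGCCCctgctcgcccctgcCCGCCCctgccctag
In the window of 250 bases before to 50 bases after the start, GGGCGG on either strand is present in 33.1% of 33469 promoters of the reference set for build GRCr8. It is present in 55.6% of the 36 collagen promoters found there. The letters CCAAT are present in 37.5% of all promoters and in 30.6% of those of collagens.

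**Figure D3:**
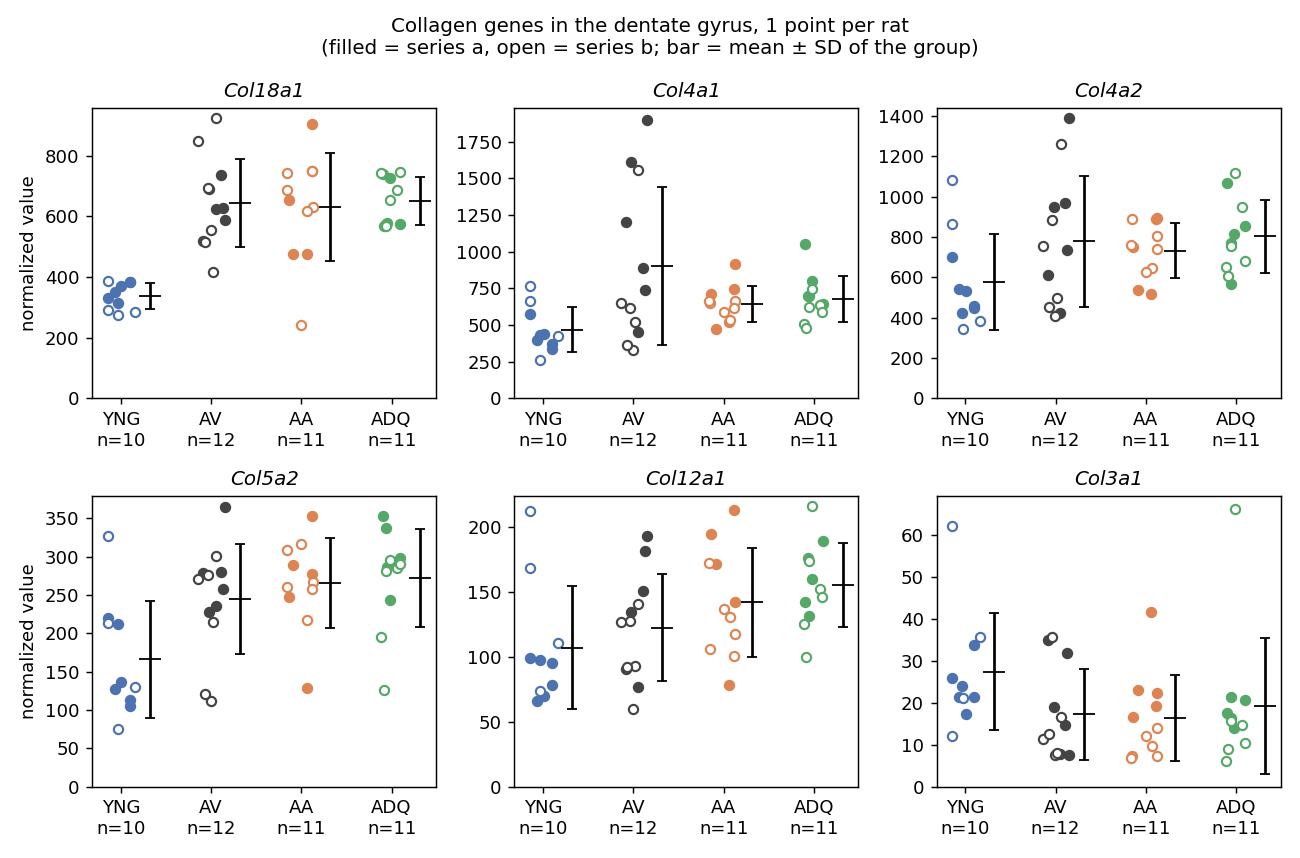
Each point is the normalized value of a rat, filled for series a and open for series b, in the 4 groups for 6 collagens, with the mean ± SD of each group as a bar. Col18a1 separates YNG from 33 of 34 older rats, while the groups overlap in the other 5 genes.

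Col4a1 and Col4a2 encode the chains that make up most type IV collagen of the vessel wall. Col4a1 (ENSRNOG00000016281) ran from 258.6 to 765 (median 428.3) in YNG, from 326.4 to 1900.2 (median 692.5) in AV, from 472.8 to 917.4 (median 648.5) in AA and from 475.7 to 1053 (median 640.7) in ADQ. The groups overlapped, 5 of 12 AV rats lay above the highest YNG rat, and 4 AV rats (3989, 3999, 4009 and 4568) were above every other rat of the study. These were also the 4 rats with the highest mean level of endothelial markers. Col4a1 rose by 0.79 ± 0.22 in AV, and by 0.51 ± 0.224 and 0.57 ± 0.224 with ABT-263 and with dasatinib and quercetin (limma adjusted p = 0.0408, 0.138 and 0.0912). Without any 1 of those 4 rats the difference in AV was 0.67 to 0.73 and the adjusted p 0.0786 to 0.0942. With the library total in the fit Col4a1 was 0.52 higher in AV (p = 0.0151) and 0.13 and 0.21 higher in AA and ADQ (p = 0.571 and 0.343). With the endothelial level in the fit, Col4a1 was 0.34 ± 0.244 higher in AV and no longer passed the threshold (p = 0.174). In that fit it was 0.27 higher in AA, where it did not pass either, and 0.44 higher in ADQ, where it passed (limma p = 0.219 and 0.0419). Within series, the difference of AV from YNG was 1.27 ± 0.251 in series a and 0.26 ± 0.31 in series b. For AA it was 0.64 in series a and 0.35 in series b, and for ADQ 0.86 and 0.28.

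Col4a2 (ENSRNOG00000023972) ran from 343.6 to 1082.5 (median 493.4) in YNG, from 407.7 to 1390.5 (median 744.7) in AV, from 517.5 to 893 (median 749.8) in AA and from 566.2 to 1119 (median 770.1) in ADQ. All AA and ADQ rats lay above the YNG median, and all groups overlapped. Its rise was 0.41 ± 0.187 for AV, 0.41 ± 0.191 for AA and 0.54 ± 0.191 for ADQ (limma adjusted p = 0.197, 0.156 and 0.0666). Adding the library total to the fit gave 0.16, 0.05 and 0.2 (p = 0.349, 0.771 and 0.279). Within series the differences were 0.63, 0.46 and 0.65 in series a and 0.14, 0.32 and 0.39 in series b. Col15a1, the other collagen that binds to the basement membrane, rose by 0.77 ± 0.36 in AV and 0.89 ± 0.368 in AA (adjusted p = 0.205 and 0.116) and was 0.73 ± 0.368 higher in ADQ (p = 0.0523). YNG averaged 13.2 ± 10 (SD), AV 19.1 ± 9.35, AA 19.6 ± 6.81 and ADQ 17.5 ± 6.76. Its differences in AV and AA were 0.51 and 0.33 in series a (p = 0.184 and 0.404) and 1.31 and 1.73 in series b (p = 0.0308 and 0.00607), where YNG rat V9 was at 1.15e-05. The pooled differences were 0.49 and 0.48 with the library total in the fit (p = 0.189 and 0.234).

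The Col4a1 and Col4a2 genes lie head to head, and their annotated starts are 76 bases apart. The stretch between the starts is shown because the chains varied together over the rats. It is written on the plus strand, on which Col4a1 lies, and capitals mark the GC box letters on the opposite strand (RefSeq, GRCr8, chr16:84885521-84885596).
Col4a2 to Col4a1: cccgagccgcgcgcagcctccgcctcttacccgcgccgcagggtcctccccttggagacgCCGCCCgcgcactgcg
The other type IV pairs are arranged in the same way, with 412 bases between the starts of Col4a4 and Col4a3 and 1414 between those of Col4a6 and Col4a5.

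The remaining type IV chains make networks that are known best from kidney, eye and ear. Col4a4 averaged 103 ± 34 (SD) for YNG, 135.5 ± 42.2 for AV, 108.6 ± 30.8 for AA and 102.7 ± 15.7 for ADQ, and it rose in AV by 0.39 ± 0.164 (limma adjusted p = 0.159). That difference was 0.82 in series a and -0.13 in series b, and -0.15 with the endothelial level in the fit. With the library total in the fit it was 0.35 (limma p = 0.0527). The direct difference of AA from AV was -0.3 ± 0.16 (p = 0.0656). Col4a3, Col4a5 and Col4a6 passed the threshold in no comparison of the pooled series. Series a and b differed here. Compared to YNG, Col4a5 was 0.72 ± 0.182 higher in AV of series a, and the effect in series a exceeded that in series b by 1.14 ± 0.277 (limma interaction, adjusted p = 0.0159). For Col4a3 and Col4a4 the gaps between series were 1.12 ± 0.406 and 0.96 ± 0.297 in AV (adjusted p = 0.0962 and 0.0528). In series a, Col4a5 averaged 62 in YNG and 102 in AV, and in series b 91.8 and 68.2. Over all genes tested, 21.8% had an interaction p below 0.05 in AV against YNG, beside 6 of 32 collagens, so the share among collagens lay near that of all genes.

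**Figure D4:**
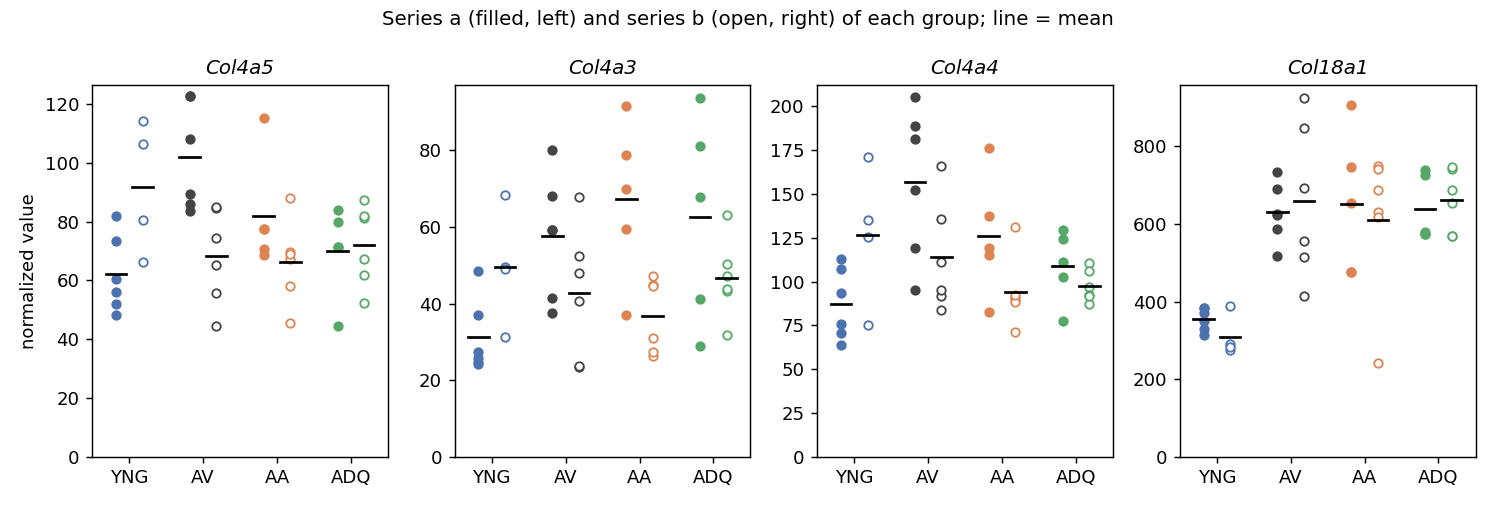
Normalized values of each rat for Col4a5, Col4a3, Col4a4 and Col18a1 in the 4 groups, with series a filled on the left, series b open on the right, and a line at the mean. YNG rats of series b average higher than those of series a for the 3 type IV chains (Col4a5 means of 91.8 and 62), with overlap, and Col18a1 is higher in the older groups of both series.

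Among the 10 fibrillar collagens, 1, 3 and 3 rose in AV, AA and ADQ, and 1 fell in both AV and AA. The shares of all genes were 10.6%, 12.6% and 13.5% higher and 10.7%, 14.1% and 14.6% lower, so the fibrillar counts in AV lay at the background. Col5a2 (ENSRNOG00000003736), a chain of type V collagen, which sits in the core of fibrils and sets their width, rose in all 3 older groups. Its values ran from 75 to 327.2 (median 133.2) in YNG, from 111.3 to 364.7 (median 264.4) in AV, from 128.1 to 352.7 (median 267) in AA and from 125.4 to 352.5 (median 287) in ADQ. The groups overlapped, with 10 rats of each older group above the YNG median. The differences from YNG were 0.61 ± 0.201, 0.76 ± 0.206 and 0.79 ± 0.206 (limma adjusted p = 0.0893, 0.0382 and 0.0223). Col5a2 also had the closest relation to the library total among the 8 collagens examined (r = -0.71, rho = -0.62, adjusted permutation p = 0.00024 and 0.00096). That r was -0.66 without the 2 most distant rats, -0.46 in series a and -0.86 in series b. With the total in the fit its differences were 0.26, 0.25 and 0.3 (p = 0.101, 0.144 and 0.0721). Within series they were 0.89, 0.75 and 1.04 in series a and 0.31, 0.73 and 0.54 in series b. The difference in AV was 0.48 (p = 0.0567) with the endothelial level in the fit.

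Col3a1, the chain of type III collagen of vessel walls and meninges, was the collagen that fell in the fit of the 4 groups alone. Its values ran from 12 to 62.1 (median 22.7) in YNG, from 7.46 to 35.6 (median 13.6) in AV, from 6.79 to 41.6 (median 14.1) in AA and from 6.01 to 66.2 (median 15.6) in ADQ. Of the older rats, 9 of 12 (AV), 9 of 11 (AA) and 10 of 11 (ADQ) lay below the YNG median, and the groups overlapped. The difference was -0.73 ± 0.321 for AV and -0.78 ± 0.328 for AA (limma adjusted p = 0.181 and 0.121). It was -0.62 ± 0.328 for ADQ (p = 0.0644). In AA it was -0.01 (p = 0.982) in series a and -1.49 (p = 0.00864) in series b, with an interaction of 1.48 (p = 0.0223, adjusted p = 0.206). In AV it was -0.49 and -1.01 (p = 0.141 and 0.0629). Col3a1 was related to the mean level of the fibroblast list over the rats (r = 0.59, rho = 0.47, adjusted permutation p = 0.00096 and 0.0163). That r was 0.44 without the 2 most distant rats, 0.51 in series a and 0.64 in series b. Col1a1, of type I collagen, passed the threshold in none of the comparisons to YNG in the fit of the 4 groups alone. Its means were 40.4 ± 18.3 (SD) for YNG, 35.7 ± 18.7 for AV, 41.4 ± 8.94 for AA and 42.3 ± 19.6 for ADQ. With the endothelial marker level in the fit, Col1a1 was at -0.81 in AV (limma p = 0.00139, adjusted p = 0.278). In AA and ADQ it was then at -0.22 and -0.15 (p = 0.309 and 0.462). It was 0.59 and 0.66 higher there than in AV (p = 0.0049 and 0.00327, adjusted p = 0.999 and 0.996).

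Col11a2 and Col27a1 are given in full as the genes with the highest mean normalized value in the fibrillar class, which gene length also affects. Col11a2, a chain of type XI collagen, ran from 980.7 to 3295 (median 2052) in YNG, from 1024 to 3084 (median 2434) in AV, from 1520 to 4034 (median 3270) in AA and from 1380 to 4118 (median 2555) in ADQ. The groups overlapped, and 4 of 11 AA rats lay above the highest YNG rat. Col11a2 rose by 0.57 ± 0.185 in AA and 0.38 ± 0.185 in ADQ (limma adjusted p = 0.0596 and 0.174) and was 0.14 ± 0.182 higher in AV (p = 0.435). The differences in AA and ADQ were 0.17 and 0 with the library total in the fit (p = 0.308 and 0.994), and the call in ADQ was lost in 25 of 44 fits that left out 1 rat. Col27a1, whose collagen forms thin fibrils, ran from 52.5 to 487.4 (median 264.6) in YNG, from 133.8 to 496.9 (median 301.6) in AV, from 127.3 to 506.4 (median 359.1) in AA and from 110.8 to 465.1 (median 309.2) in ADQ. It overlapped in all groups and passed the threshold in no comparison. Col5a1 rose in AA by 0.78 ± 0.343 (means of 160.3 in YNG and 256.9 in AA) and Col24a1 in ADQ by 0.76 ± 0.355 (means of 14.3 and 22.1), with limma adjusted p-values of 0.138 and 0.151. These differences were -0.15 and 0.15 with the library total in the fit.

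Of the 14 other collagens tested, 1, 7 and 7 rose in AV, AA and ADQ, and none fell, beside the same shares of all genes. The FACIT collagens held 6 of the 7 in AA and 4 of the 7 in ADQ, while none of the 7 FACIT genes tested passed the threshold in AV, beside 12.6%, 13.5% and 10.6% of all genes that rose in AA, ADQ and AV. No FACIT gene rose in any older group with the library total in the fit. In the direct comparisons with AV below, 1 FACIT gene (Col12a1) passed the unadjusted threshold, in ADQ. Col12a1 (ENSRNOG00000058470), of type XII collagen, ran from 65.7 to 212.6 (median 96.7) in YNG, from 59.9 to 193 (median 127.4) in AV, from 78.2 to 213.8 (median 136.8) in AA and from 100.2 to 216.4 (median 152.2) in ADQ. All 11 ADQ rats lay above the YNG median, and the groups overlapped. It rose by 0.61 ± 0.193 in ADQ and 0.45 ± 0.193 in AA (limma adjusted p = 0.0465 and 0.131) and was 0.21 ± 0.189 higher in AV (p = 0.266). Within series the differences in AA were 0.85 in series a and -0.06 in series b, and in ADQ 0.92 and 0.18. In AA and ADQ they were 0.05 and 0.23 with the library total in the fit (p = 0.785 and 0.197). The adjusted p in ADQ stayed below 0.05 in 27 of 44 fits that left out 1 rat.

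Col9a2 and Col9a3 encode chains of type IX collagen, known from cartilage. Col9a2 ran from 46.2 to 128.1 (median 77.6) in YNG, from 47.1 to 158.2 (median 134.8) in AV, from 84 to 503.5 (median 125.3) in AA and from 70.1 to 170.5 (median 100.1) in ADQ. AA rat 3988 held the value of 503.5, far above the other 43 rats, and all AA rats lay above the YNG median. Col9a2 rose by 0.83 ± 0.24 in AA (limma adjusted p = 0.0462), and without that rat by 0.64 (p = 0.00415, adjusted p = 0.0897). It was 0.46 higher once the library total was in the fit (p = 0.0684), and 1.1 and 0.62 higher within series a and b. Col9a3 ran from 23.7 to 84.5 (median 56.5) in YNG, from 33.2 to 96.3 (median 78.8) in AV, from 63.3 to 108.7 (median 81.5) in AA and from 46.4 to 112.7 (median 71.9) in ADQ. All AA rats were above the YNG median here too, with overlap between the groups. It rose by 0.62 ± 0.185 in AA (limma adjusted p = 0.0493) and was 0.32 ± 0.181 higher in AV and 0.36 ± 0.185 higher in ADQ (p = 0.0866 and 0.0586). In AA the adjusted p stayed below 0.05 in 16 of 44 fits that left out 1 rat, and with the library total in the fit the difference was 0.3 (p = 0.108). Within series it was 0.57 and 0.73.

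Col6a1 and Col16a1 are given in full by the same rule among the other collagens. Col6a1, of the beaded filaments, ran from 216.1 to 1019 (median 400.8) in YNG, from 235.9 to 1048 (median 684.1) in AV, from 246.3 to 961.9 (median 675.3) in AA and from 215.1 to 875 (median 697.6) in ADQ. It rose in ADQ by 0.56 ± 0.265 (limma adjusted p = 0.158), with overlap of all groups, and was at -0.04 with the library total in the fit. Within series it was 0.91 in series a and 0.21 in series b. Col16a1, a FACIT collagen, ran from 113.7 to 512.3 (median 217.9) in YNG, from 96.3 to 685.5 (median 387.6) in AV, from 201.3 to 602.2 (median 431.1) in AA and from 158.8 to 556.1 (median 373) in ADQ. It rose by 0.74 ± 0.248 in AA and 0.54 ± 0.248 in ADQ (limma adjusted p = 0.0633 and 0.148), and in each older group 10 rats lay above the YNG median. Adding the library total to the fit gave 0.16 and -0.02 (p = 0.454 and 0.939). Within series they were 0.8 and 0.72 in series a and 0.67 and 0.35 in series b.

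The remaining calls of this class were in 5 genes. Col25a1, a membrane collagen made by neurons, rose in ADQ by 0.61 ± 0.204 (means of 192.9 in YNG and 278.7 in ADQ, limma adjusted p = 0.0551). Col6a2 rose in AV by 0.62 ± 0.24 and in AA by 0.52 ± 0.245, with means of 101.4, 153.1 and 144.3 in YNG, AV and AA. Within series these differences were 0.99 and 0.88 in series a and 0.14 and 0.07 in series b. Col19a1 rose by 0.77 ± 0.324 in both AA and ADQ (means of 30.7, 51.1 and 49.2 in YNG, AA and ADQ). Col20a1 rose by 0.44 ± 0.213 and 0.45 ± 0.213 there (means of 31.4, 41.4 and 41.4). Col6a6 rose by 0.71 ± 0.315 in ADQ (means of 13.5 and 20.8). None of these 5 genes had an adjusted p below 0.05 in the fit of the 4 groups alone. With series as a term, Col25a1 was 0.55 ± 0.186 higher in ADQ (limma adjusted p = 0.0487). With the library total in the fit Col25a1 was 0.34 higher in ADQ (p = 0.112) and Col6a2 0.51 in AV (p = 0.0508), and Col6a2 was at -0.02 in AV with the endothelial level in the fit. Col6a2 in AA was at 0.36 and Col6a6 in ADQ at 0.34 with the total (p = 0.196 and 0.314). Col19a1 was then at -0.04 in AA and 0.01 in ADQ, and Col20a1 at 0.02 and 0.05 (p from 0.808 to 0.976).

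Few collagens differed between the older groups, which is the comparison that bears on the senolytics. Compared to AV, 1 of 32 collagens rose in AA and none fell, beside 1.4% and 3.1% of all genes. In ADQ 1 rose and 1 fell, beside 3.42% and 5.9%. Between AA and ADQ, 0 collagens passed the unadjusted limma threshold in either direction, beside 2.13% and 2.4%. No collagen and no other gene had an adjusted p below 0.05 in these 3 comparisons. Col11a2 was higher in AA than in AV by 0.43 ± 0.177 (limma p = 0.0199, adjusted p = 0.999). Col12a1 was higher in ADQ than in AV by 0.39 ± 0.185 (p = 0.0378, adjusted p = 0.512), and within series by 0.28 and 0.52. It did not pass with the library total in the fit (0.29, p = 0.0609), without the 4 highest totals (0.36, p = 0.0575) or in 9 of 44 fits that left out 1 rat.

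Col4a4 was the collagen that was lower in ADQ than in AV, by -0.35 ± 0.16 (limma p = 0.0342, adjusted p = 0.499). It ran from 64 to 171 (median 100.2) in YNG, from 83.8 to 205.2 (median 127.4) in AV, from 71.2 to 176.3 (median 92.4) in AA and from 77.3 to 129.2 (median 102.8) in ADQ. The ranges overlapped, and the spread was narrowest in ADQ. Adding the endothelial level to the fit turned the sign of this difference, to 0.0291. The difference was -0.37 with the library total in the fit (limma p = 0.0276) and -0.39 without the 4 highest totals (p = 0.021). Within series it was -0.5 in series a (p = 0.0311) and -0.19 in series b (p = 0.323). The call was lost in 7 of 44 fits that left out 1 rat. Between AA and ADQ the smallest p belonged to Col9a2, 0.42 ± 0.235 higher in AA (p = 0.0831). For Col18a1, Col4a1, Col4a2 and Col5a2, the 4 collagens that rose in every older group, the differences of AA and ADQ from AV lay between -0.28 and 0.18, with limma p-values from 0.203 to 0.981. In other fits Col4a1 was lower in AA than in AV. It was at -0.4 with the library total (limma p = 0.0452) and at -0.64 in series a alone (p = 0.0241), with an adjusted p of 0.999 in both. In series b it was at 0.09 (p = 0.749), and with the endothelial level in the fit at -0.07 (p = 0.748).

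Listed pairs of chains were compared over the 44 rats, on log2 values with the group means taken off. In the 9 pairs with both genes tested, the chains were of the same collagen type, except for Col1a1 with Col3a1. Col9a2 with Col9a3 was not among these pairs. Of the 9 pairs, 8 had an adjusted permutation p below 0.05 for both r and rho. Col5a1 and Col5a2 (r = 0.84, rho = 0.76) and Col4a1 and Col4a2 (r = 0.83, rho = 0.81) were the closest pairs. Their r was 0.79 in both cases without the 2 rats farthest from the median, and 0.7 and 0.82 in series a and 0.91 and 0.9 in series b. The permutation p for r was 1e-05 for these pairs and for Col11a1 with Col11a2 (r = 0.73, rho = 0.56), the smallest that the resampling can give. Col4a3 with Col4a4 (r = 0.55) and Col1a1 with Col3a1 (r = 0.55) were looser, as were the type IX pairs of Col9a1 with Col9a2 (r = 0.39) and Col9a3 (r = 0.41) and Col4a5 with Col4a6 (r = 0.35). Col6a1 and Col6a2 were the exception (r = 0.2, rho = 0.23, adjusted permutation p = 0.224 and 0.154). All 32 collagens tested had a negative r with the library total, and its part in the relations between chains was not tested.

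**Figure D5:**
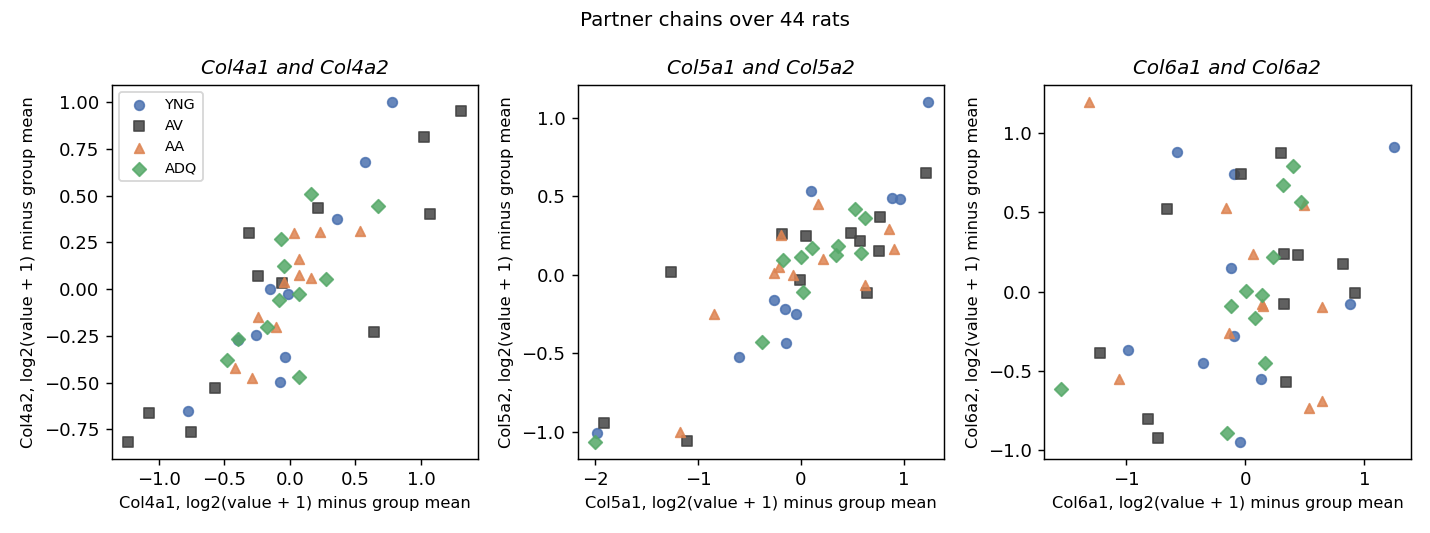
Each point is a rat, with the log2(value + 1) of a chain minus its group mean on each axis, for Col4a1 with Col4a2, Col5a1 with Col5a2 and Col6a1 with Col6a2. The first pairs follow a line (r = 0.83 and 0.84), and the type VI pair is scattered (r = 0.2).

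Of 28 tested genes of collagen maturation, the enzymes and chaperones that modify, fold, trim and cross-link the chains, 4 rose and 3 fell in AV compared to YNG, 1 rose and 5 fell in AA, and 3 rose and 6 fell in ADQ. For comparison, 10.6%, 12.6% and 13.5% of all genes rose in these groups and 10.7%, 14.1% and 14.6% fell. Serpinh1, the chaperone HSP47 that binds folded collagen, averaged 931 ± 199.1 (SD) for YNG, 768 ± 206.4 for AV, 699.4 ± 101.7 for AA and 670.6 ± 109.9 for ADQ. It fell in each older group, and in ADQ by 0.46 on the log2 scale (SE 0.121, limma adjusted p = 0.0228). Fkbp10, a peptidyl prolyl isomerase of the same step, fell by 0.5 in AA and by 0.67 in ADQ (SE 0.127 each, adjusted p = 0.0317 and 0.00312). Loxl3, a cross-linking oxidase, fell in ADQ by 0.56 (SE 0.145, adjusted p = 0.0218). Adamts14, which trims the ends of fibrillar procollagens, rose in AV by 1.69 ± 0.461 (adjusted p = 0.0368), and Plod2 and Lox, a hydroxylase and an oxidase needed for cross-links, rose there by 0.78 ± 0.261 and 0.64 ± 0.215 (adjusted p = 0.0906 and 0.0922).

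Partners of collagens in the matrix were counted in the same way. Of 15 tested partners in the basement membrane 5 rose and none fell in AV, and 4 rose in both AA and ADQ, with 1 that fell in AA. Of all genes 10.6%, 12.6% and 13.5% rose in these groups and 10.7%, 14.1% and 14.6% fell. Compared to AV, 4 of the 15 fell in AA and 4 in ADQ, beside 3.1% and 5.9% of all genes. Tinagl1, a matrix protein of the basement membrane, rose by 1.36 ± 0.239 in AV and 0.95 ± 0.244 in AA (limma adjusted p = 0.000716 and 0.033). Lamc1, the laminin gamma 1 chain, rose in AV by 0.49 ± 0.114 and Nid2, a nidogen that joins laminin to type IV collagen, by 1.09 ± 0.305 (adjusted p = 0.013 and 0.042). Of 12 partners of fibrils 4 rose and none fell in AV, 1 rose and 1 fell in AA, and 2 rose and 1 fell in ADQ. Compared to AV, 2 and 3 of the 12 fell in AA and ADQ. Those that rose in AV included Fn1, the gene of fibronectin, with a rise of 1.77 ± 0.316 (adjusted p = 0.00091), and the proteoglycans Fmod and Bgn, with 0.59 ± 0.236 and 0.34 ± 0.162. Fn1 averaged 627.3 ± 291.1 (SD) for YNG, 3037 ± 3497 for AV, 1133 ± 282.5 for AA and 1118 ± 115.3 for ADQ, so the AV rats differed widely among themselves. AV rat 3989 had the highest summed level of the fibril partners, 15843 beside an AV mean of 5486 ± 3797 (SD). This rat also had the highest sum of the collagen maturation genes, 26786 beside 17093 ± 3323 in AV.

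Of 12 tested genes of collagen breakdown 3, 1 and 1 rose in AV, AA and ADQ, and 0, 2 and 3 fell, beside 10.6%, 12.6% and 13.5% of all genes that rose and 10.7%, 14.1% and 14.6% that fell. Reck, an inhibitor of matrix metalloproteases, rose in each older group, by 0.6 ± 0.175, 0.56 ± 0.178 and 0.55 ± 0.178 (limma adjusted p = 0.0536, 0.0576 and 0.0481). The other 2 that rose in AV were Timp3 by 0.3 ± 0.118, a matrix-bound protease inhibitor, and Mrc2, an uptake receptor for collagen. Of 7 tested collagen receptors 2, 1 and 2 rose in AV, AA and ADQ, and 1 fell in each. In AV they were Itga1 by 0.91 ± 0.276 and Ddr1 by 0.25 ± 0.0896 (adjusted p = 0.0645 and 0.112). Itga1 also rose in ADQ by 0.64 and Ddr1 in AA by 0.18 (adjusted p = 0.13 and 0.187), and Ddr2 rose in ADQ by 0.46 (adjusted p = 0.114). Adgrg1, an adhesion receptor for type III collagen, fell by 0.2 in AV (SE 0.0885), by 0.25 in AA and by 0.28 in ADQ (SE 0.0903 each, adjusted p = 0.175, 0.0784 and 0.0465).

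Endothelial markers were followed because the basement membrane collagens line vessels. All 10 endothelial markers rose in AV compared to YNG, 6 rose in AA and 2 in ADQ, beside 10.6%, 12.6% and 13.5% of all genes. Compared to AV 4 fell in AA and 8 in ADQ, beside 3.1% and 5.9% of all genes. Their summed level was 3824 ± 1240 (SD) for YNG, 6544 ± 3053 for AV, 4863 ± 750 for AA and 4289 ± 419 for ADQ. The mean log2 level of the list differed between the series. Series a had YNG rats at 7.37 ± 0.232 (SD), below AV (8.59 ± 0.702), AA (8.12 ± 0.213) and ADQ (7.87 ± 0.147). Series b had YNG rats at 8.03 ± 0.322, near AV (8.17 ± 0.405) and slightly above AA (7.96 ± 0.273) and ADQ (7.86 ± 0.0848). The rise over YNG thus lay mainly in series a, and the fits with this level as a term pooled the series. Slc2a1, the glucose transporter of brain capillaries, had the highest normalized values of the list, and none of the 10 was at 0. Over the rats, Col4a1 had r = 0.44 with the endothelial level (permutation p = 0.0299, adjusted p = 0.0896), with Col4a2 at 0.06 and Col18a1 at -0.29 (adjusted p = 0.833 and 0.141). With the endothelial level in the fit, 2 collagens rose and 2 fell in AV, 9 rose and 1 fell in AA, and 10 rose and 1 fell under ADQ. Of all genes, 3.88%, 10.4% and 13.6% rose and 4.08%, 11.8% and 14.4% fell in that fit. The part of vessel content in the collagen differences was not tested beyond these values.

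The counts of the other marker lists stand beside the same background, 10.6%, 12.6% and 13.5% of all genes higher and 10.7%, 14.1% and 14.6% lower than YNG, so that 1 of 10 markers lies at the background. Of the markers of pericytes and smooth muscle, 2 of 10 rose in AV (gene with the highest values Pdgfrb), and of those of meningeal and perivascular fibroblasts 2 of 12 rose and 1 fell (Ptgds). The fibroblast markers Foxc2 and Ogn had mean values below 5. Oligodendrocyte markers rose in AV in 9 of 10 (Mbp), microglial in 4 of 10 (Csf1r), astrocyte in 3 of 10 (Gfap), red blood cell in 1 of 3 (Hbb) and interneuron in 1 of 10 (Gad1). In oligodendrocyte precursors 2 of 7 fell (Bcan) and in dentate granule cells 2 of 6 (C1ql2). Markers of choroid plexus (Ttr), CA1 pyramidal cells (Wfs1) and CA3 pyramidal and mossy cells (Cpne4) passed the threshold in neither direction in AV. Granule cell markers, which define the DG, were present throughout, with summed levels of 15447 for YNG, 12619 for AV, 12283 for AA and 12853 for ADQ. In AA and ADQ, oligodendrocyte markers rose in 4 and 2 of 10 and interneuron markers in 5 and 3 of 10, with 1 interneuron marker lower in ADQ. Granule cell markers fell in 3 of 6 in both groups and precursor markers in 2 of 7. Of 10 astrocyte markers 2 rose and 2 fell in AA, and 1 rose and 3 fell in ADQ. Microglial markers rose in 1 of 10 in AA and fell in 1 of 10 in ADQ. Of the pericyte markers 1 rose in each group and 2 fell in ADQ, and of the fibroblast markers 1 rose and 2 fell in AA and 1 fell in ADQ. A CA3 marker rose in ADQ, and choroid plexus, CA1 and red blood cell markers passed the threshold in neither group. Compared to AV, where 3.1% and 5.9% of all genes fell in AA and ADQ, 3 and 7 of 10 microglial markers, 0 and 5 of 10 oligodendrocyte markers, 2 and 2 of 10 pericyte markers, 2 and 1 of 12 fibroblast markers and 1 and 3 of 3 red blood cell markers fell. Astrocyte and precursor markers fell in 1 each in both groups and choroid plexus markers in 2 of 6 in ADQ. Interneuron markers rose in 2 of 10 in AA, and CA3 markers in 1 and 2 of 7. The part of these cell types in the collagen differences was not tested.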

How the data were processed

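RNA of the DG was sequenced on an Ion platform. Per the labels and the methods of the study, the authors trimmed the reads, aligned them to rn6 with STAR (2.5.3a in the submitters' processing notes) in Partek Flow, applied median ratio scaling and used DESeq2. The annotation and the counting model are not given in the sources used here. The deposited signal values are estimated reads over a library factor, so no count model was used. Estimated depth was 10166556 to 24328321 reads per rat. The 53 collagen rows were summed per gene identifier.

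The labels give the age only, so the treatment of the older rats was read from the authors' attribute table. Values were log2(value + 1), and genes with a mean of at least 5 were fitted with limma 3.58.1 (trend) in R 4.3.3, two-sided. Correlations were tested with 100000 permutations within groups and adjusted over 9 partner pairs, and over 24 relations of 8 genes to 3 measures chosen after seeing the data. On simulated data in which 200 genes differed by log2 1, 96.5% of these passed the unadjusted threshold in AV against YNG. Python 3.11.15 with numpy, pandas, scipy and matplotlib was used.

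Collagens with p below 0.05 are named. Ranges are given for the smallest p of a comparison, adjusted p below 0.05 and the 2 highest means of a class, and listed genes by their smallest p. Members and lists were chosen with earlier results of these data known. Every rat is a separate animal, and p-values measure the spread between animals.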

Additional observations from a re-analysis of the deposited data

Results flagged for a closer look

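In YNG, 32 collagens were examined for a rat far from the other 9, and 4 stood out. The limit used flags about 1 in 20 groups by chance only where values are spread normally. It was applied to the normalized values and not to their log2. Most of the 4 come from 1 rat, so their number cannot be set against that rate. YNG rat V11 had Col1a1 at 88.4 (next highest 51.1), Col3a1 at 62.1 (35.8) and Col24a1 at 38.7 (22.6). YNG rat V6 had Col2a1 at 19.6 (6.88). Groups of more than 10 rats were not examined in this way. The effect of AV against YNG on Col4a5 differed between series a and b by 1.14 on the log2 scale (limma interaction, adjusted p = 0.0159).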

How the results depend on the processing

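The threshold of 39 differences of single collagens was passed under every alternative of pseudocount, unfiltered genes, upper quartile scaling and series as a term. With the 2 groups alone 36 of 39 passed, with array weights 35, with the highest row of a gene 37, in series a alone 29 and in series b alone 11. Of the alternatives chosen after seeing the data, 8 of 39 passed with the library total as a term, 17 without the 4 highest totals and 22 with the endothelial level as a term. Of the 39, 16 passed in all 44 fits without 1 rat. Col18a1 had an adjusted p below 0.05 in all 44 fits for each older group, with a largest value of 0.00356.

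The number of collagens called in AV against YNG, 8 in all, was 20 with array weights (all higher, beside 23.8% of all genes), 3 in series b, 5 with the library total, 5 without the 4 highest totals and 4 with the endothelial level. In AA against YNG the 15 became 7 in series b, 3 with the library total and 7 without the 4 highest totals. In ADQ against YNG the 13 became 20 with array weights (all higher, beside 25.5% of all genes), 3 in series b, 2 with the library total and 4 without the 4 highest totals. In AA against AV the 1 became 2 with series as a term, with the highest row, with the library total and without the 4 highest totals, 3 with the endothelial level and 0 in series b. In ADQ against AV the 2 became 4 with array weights and 1 in series b, with the library total and without the 4 highest totals. Why these counts moved was not tested.

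Leaving out 1 rat at a time gave 5 to 10 calls in AV against YNG (5 without AV rat 4009), 9 to 19 in AA against YNG (9 without YNG rat V9) and 7 to 17 in ADQ against YNG (7 without YNG rat V1, and 8 without YNG rats V9 or V12 or ADQ rats 4004 or 4105). It gave 1 to 4 in AA against AV (4 without AA rat 3985), 0 to 4 in ADQ against AV (0 without AV rat 3989, 4 without ADQ rat 4005) and 0 to 1 in AA against ADQ (1 without AA rat 3985 or ADQ rat 4004). With 1 or 2 calls in AA and ADQ against AV, many other single rats moved them by 1.

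The sign turned in 9 cases. With the library total as a term it was -0.15 for Col5a1 and -0.0352 for Col19a1 in AA against YNG, and -0.0416 for Col6a1 and -0.0161 for Col16a1 in ADQ against YNG. With the endothelial level it was -0.0214 for Col6a2 and -0.15 for Col4a4 in AV against YNG, and 0.0291 for Col4a4 in ADQ against AV. In series b it was -0.13 for Col4a4 in AV and -0.0621 for Col12a1 in AA against YNG. Of the partner pairs, 8 of 9 passed, 3 in series a and 5 in series b alone, each with 22 rats. Without the filter on the mean, all 42 collagens were tested and 9, 17 and 14 were called in AV, AA and ADQ against YNG, and a minimum of 20 left 23 collagens. No paired analysis was possible because the labels give no replicate numbers that rats of different groups share.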
